A study of Mus musculus with 233 samples.

Results

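The genes described here encode the subunits of the mitochondrial respiratory chain and ATP synthase, taken from both genomes. Members were chosen by symbol in the deposited gene table: names that begin with Nduf, Uqcr, Cox4 to Cox8 or Atp5, the Sdh genes a to d, and the mt-Nd, mt-Co, mt-Atp and mt-Cytb genes, with pseudogenes left out. The rule matched 117 entries, of which 11 were pseudogenes, and so gave 106 members of 41129 genes: 93 in the nuclear genome and 13 in mitochondrial DNA. Complex I had 38 nuclear and 7 mt-encoded subunits, with 8 further members named as its assembly factors (Ndufaf), complex II had 4, complex III 8 and 1, complex IV 18 and 3, and complex V 17 and 2. The grouping follows the symbol prefix, so Ndufa4 and Ndufa4l2 are counted with complex I by name only.

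Striatal polyadenylated RNA was sequenced from 120 mice that carried a heterozygous zQ175 knock-in (a human HTT exon 1 carrying a long CAG tract takes the place of mouse Htt exon 1) or were wild-type (WT) littermates, 12 of each genotype in each of 5 paradigms and of both sexes. All mice received adeno-associated virus in the striatum. The vector nZFP carried a zinc finger repressor of the expanded allele (ZFP30645), DBD carried the same repressor without its DNA-binding domain, and Estop carried a stuffer that makes no protein. In the paradigms 2M_6M and 2M_8M the mice were injected at 2 months of age and collected 4 and 6 months later, at 6 and 8 months; in 6M_8M, 6M_10M and 6M_12M they were injected at 6 months and collected 2, 4 and 6 months later, at 8, 10 and 12 months. Each paradigm thus had 6 groups (WT or zQ175 with DBD, Estop or nZFP) of 6 to 8 libraries, 233 libraries in all. The repressor and DBD were driven by the human synapsin promoter and so are made in neurons, whereas the knock-in allele sits in every cell. In 113 mice the hemispheres received different viruses and each gave a library, so groups that differ by virus share animals. RNA came from whole striatal tissue, in which fewer cells of a type and less RNA per cell cannot be told apart.

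The respiratory chain passes electrons from NADH (complex I) and succinate (complex II) through ubiquinone, complex III and cytochrome c to oxygen at complex IV, and complexes I, III and IV pump the protons that drive ATP synthase, complex V. Complex II is wholly nuclear-encoded, whereas each of the other complexes contains some subunits translated inside the mitochondrion from mitochondrial DNA. Striatal medium spiny neurons, the cells most affected in Huntington's disease, depend on this pathway, and complex II is known for its inhibitors, which cause striatal lesions in animals. Nuclear genes of the chain often have promoter matches to NRF1, to ETS factors such as GABP, or to YY1.

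The promoters of 3 members are shown because these genes lead the genotype results given below: Atp5g1 (a precursor gene of the proton-carrying c subunit of ATP synthase), Ndufs3 (a core subunit of the complex I arm that takes electrons) and Sdha (the flavoprotein that oxidises succinate in complex II). Each is the reference sequence of RefSeq, build GRCm38.p6, from 250 bases before to 50 bases after the annotated start, written 5′ to 3′ on the gene's strand. Atp5g1 lies on the minus strand at chr11:96075582-96075881, Ndufs3 on the minus strand at chr2:90904672-90904971 and Sdha on the minus strand at chr13:74350191-74350490. Capitals mark matches on either strand to the NRF1 letters (GCGCA, any base, then GCGC), to CCGGAAG (ETS) or to AANATGGC (YY1).
Atp5g1: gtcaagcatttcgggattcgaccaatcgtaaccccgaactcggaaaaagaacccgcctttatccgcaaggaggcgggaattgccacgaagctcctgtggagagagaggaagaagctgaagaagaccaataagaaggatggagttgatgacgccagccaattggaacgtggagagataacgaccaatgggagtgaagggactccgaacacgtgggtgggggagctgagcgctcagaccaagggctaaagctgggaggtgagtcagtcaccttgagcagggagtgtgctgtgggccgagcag
Ndufs3: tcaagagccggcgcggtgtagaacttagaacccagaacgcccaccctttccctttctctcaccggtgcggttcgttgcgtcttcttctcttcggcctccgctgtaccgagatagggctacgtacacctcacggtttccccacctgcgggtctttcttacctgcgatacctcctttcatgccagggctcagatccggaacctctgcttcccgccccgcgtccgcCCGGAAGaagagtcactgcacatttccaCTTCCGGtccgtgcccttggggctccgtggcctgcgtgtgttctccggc
Sdha: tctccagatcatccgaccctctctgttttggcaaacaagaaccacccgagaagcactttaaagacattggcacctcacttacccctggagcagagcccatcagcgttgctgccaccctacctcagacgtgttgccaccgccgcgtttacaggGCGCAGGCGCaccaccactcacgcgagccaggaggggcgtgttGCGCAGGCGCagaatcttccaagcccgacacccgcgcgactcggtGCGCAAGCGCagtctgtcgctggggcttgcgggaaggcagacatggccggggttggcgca

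Sdha had 3 NRF1 matches in this window, Ndufs3 had 2 ETS matches and Atp5g1 had no match to any of these letters. Of the nuclear members, 74 matched the RefSeq promoter table by symbol, with 79 windows. The NRF1 letters were in 25.3% of the members' windows and in 4.60% of the 32851 windows of all genes. The ETS letters were in 22.8% against 8.86%, and the YY1 letters in 22.8% against 6.05%. These are matches of letters and were not tied to binding.

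Libraries held 27993215 to 61296071 gene counts (median 37385953). In 4 libraries the vector's own transcripts went against the label: WT DBD replicates 7 and 8 of 6M_8M had 321 and 480 counts per 1000000 gene counts (CPM) of the repressor sequence (median over DBD libraries 8.57), zQ175 nZFP replicate 5 of 6M_8M had 8.55 (median over nZFP libraries 594), and WT DBD replicate 6 of 2M_6M had 59.2 CPM of the vector's WPRE element (median over DBD libraries 1627). A second set of libraries stood apart in the balance of short and long transcripts. This was summarised as a length index: tested genes other than the members and mitochondrial genes were cut into 4 classes of exon length, and the mean centred log2 CPM of the longest class was taken from that of the shortest. The index was 1.13 in zQ175 DBD replicate 3 of 2M_6M, 1.01 in WT DBD replicate 2 of 6M_10M, 1.17 in zQ175 nZFP replicate 2 of 6M_10M and 0.77 in WT nZFP replicate 8 of 6M_8M. Results that rest on these libraries are given with and without them. The opposite hemispheres of these 4 mice had indices of −0.02, 0.06, −0.06 and 0.03.

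All mt-encoded transcripts but mt-Nd6 were more abundant than any nuclear member. On the scale of TPM (transcripts per 1000000, scaled by length, mean over 233 libraries), mt-Co1, the catalytic subunit of complex IV, reached 38723 and mt-Nd6, the only member on the other strand of mitochondrial DNA, was lowest of the 13 at 1906. The most abundant nuclear members of the complexes were Cox4i1 (complex IV, 2237 TPM), Atp5b (the catalytic subunit of complex V, 1718 TPM), Ndufa4 (504 TPM), Sdha (411 TPM), Uqcrh (complex III, 369 TPM) and, of the assembly factors, Ndufaf3 (54.8 TPM). Together the 13 mt-encoded members took 3.12% to 22.6% of a library's gene counts. Isoforms of complex IV known from muscle, lung or testis were rare: Cox6a2 had 9.99 TPM against 1699 for Cox6a1, Cox4i2 8.30 against 2237 for Cox4i1, Cox6b2 5.81, Cox7a1 2.93, and Cox8b, Cox7b2 and Cox8c under 1. Those last 3 genes did not pass the filter on low counts in any paradigm, which left 103 members tested in each (90 nuclear and 13 mt-encoded), of 15523 to 16000 genes tested.

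The nuclear members were first summed in each library. In 2M_6M the WT DBD libraries ran from 10594 to 14654 CPM with a median of 11841, the zQ175 DBD libraries from 10136 to 32939 with a median of 11851, and the zQ175 nZFP libraries from 11477 to 12960 with a median of 12258. The groups overlapped, and zQ175 DBD replicate 3 lay far above every other library. In 2M_8M the medians were 13182 in WT DBD, 11908 in zQ175 DBD, 15962 in zQ175 nZFP and 16985 in WT nZFP. In 6M_10M the highest WT DBD library reached 23111 and the highest zQ175 nZFP library 27841, against group medians of 11551 and 11354.

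**Figure D1:**
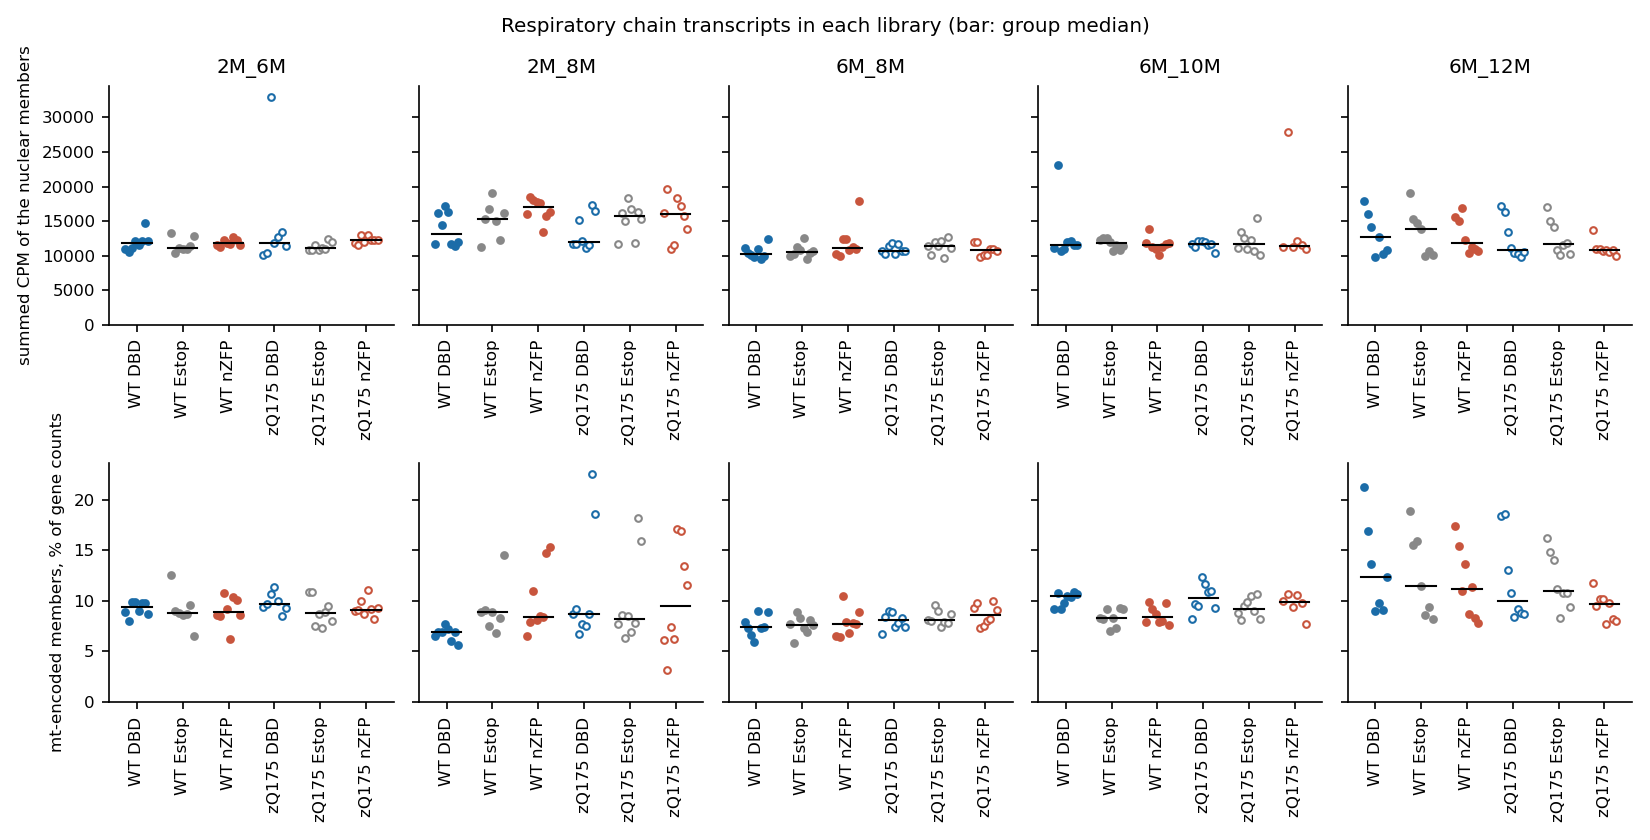
Summed CPM of the nuclear members (top) and the percentage of gene counts in the 13 mt-encoded members (bottom) in each library, by paradigm and group; each dot is 1 library and the bar is the group median. In 2M_6M a single zQ175 DBD library sits at 32939 CPM while the group median is 11851, and the widest spread of the mt-encoded percentage is in 2M_8M, from 3.12% to 22.6%.

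The genotype comparison (zQ175 DBD against WT DBD, in hemispheres labelled as without active repressor) asked which members differ in the disease model at each age. Its 6M_8M fit holds WT DBD replicates 7 and 8, which carried transcripts of the repressor sequence. In 2M_6M, 40 of 103 members were higher and 0 lower at an adjusted p under 0.05 (edgeR quasi-likelihood test), where 17.2% of all 15673 genes were higher and 11.5% lower. In the other paradigms few members passed: 1 higher and 2 lower in 2M_8M (background 9.32% and 9.37%), 0 in 6M_8M (3.98% and 5.15%), 1 and 1 in 6M_10M (11.9% and 12.3%) and 1 and 0 in 6M_12M (9.14% and 9.14%). In 6M_8M 2 members had an unadjusted p under 0.05, and DESeq2 called 0. The median log2 fold change over members was 0.36, −0.05, 0.05, −0.21 and −0.14 in the 5 paradigms in this order, against 0.03 over all genes in 2M_6M.

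In 2M_6M the higher members came from every complex. Of complex I, 15 of 38 nuclear subunits were higher (median log2 fold change over the 38, 0.43), of its assembly factors 2 of 8 (0.25), of complex II 2 of 4 (0.25), of complex III 3 of 8 (0.41), of complex IV 7 of 15 (0.41) and of complex V 10 of 17 (0.39). Of the mt-encoded members 1 of 13 was higher, mt-Nd6, and their median was −0.04 against 0.39 for the nuclear members. The largest rises were in small accessory subunits: Ndufa2 rose by 0.99 (SE 0.29, adjusted p 0.0084), Cox7a1 by 0.97 (adjusted p 0.026), Ndufc2 by 0.96 (SE 0.26, adjusted p 0.0051), and the complex V genes Atp5e and Atp5mpl each by 0.95 on the log2 scale. The longer catalytic genes did not pass: Atp5b differed by 0.04 (SE 0.06, adjusted p 0.64) and Sdha by −0.01 (adjusted p 0.94). In 6M_10M the medians of the complexes were all negative, from −0.26 in complex I to −0.10 in complex II.

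Library by library, most of these rises in 2M_6M rested on 1 of the 7 zQ175 DBD libraries. Ndufc2, a membrane-arm subunit of complex I, ran from 28.2 to 43.2 CPM in WT DBD with a median of 32.2, and from 29.5 to 271 CPM in zQ175 DBD with a median of 35.2. Cox7c, a small subunit of complex IV, ran from 122 to 190 CPM (median 134) in WT DBD and from 112 to 953 CPM (median 147) in zQ175 DBD. The groups overlapped, and the highest value in each case was replicate 3. In that library 84 of the 90 nuclear members lay above every other library of the group, 4 lay within and 2 below, Sdha (368 CPM against 509 to 573) and Uqcrc2, a core subunit of complex III (156 CPM against 179 to 210). The median distance from the group was 1.82 on the log2 scale over nuclear members, and it was largest in complexes III (2.01) and I (1.99), then IV (1.85), V (1.61), the assembly factors (1.27) and II (1.21). Atp5e, the smallest rotor subunit of ATP synthase, stood at 613 CPM against 51.6 to 80.9 in the other 6 libraries.

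Without replicate 3, 2 members were higher and 4 lower in 2M_6M (background 13.1% and 12.6%), and the median over members was −0.04. Ndufc2 then differed by 0.08 (SE 0.08, adjusted p 0.5), Cox7c by −0.05 (SE 0.07, adjusted p 0.65), Ndufa2 by −0.02 (adjusted p 0.89) and Cox7a1 by 0.31 (adjusted p 0.45). The members called were Atp5g1 (0.23, adjusted p 0.0051) and Atp5s (0.30, adjusted p 0.015) as higher, and Ndufs3 (−0.33, adjusted p 0.00038), Uqcrb (−0.21, adjusted p 0.0051), Ndufs7 (−0.22, adjusted p 0.03) and Cox4i2 (−0.41, adjusted p 0.011) as lower. In 6M_10M, without the 2 libraries that stood apart, 2 members were higher and 2 lower (background 15.8% and 16%): Atp5g1 (0.31) and Sdha (0.08), and Uqcrb (−0.33) and Ndufs3 (−0.23).

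Against the WT Estop group, the zQ175 Estop group of 2M_6M had 0 members called with all libraries (background 10.1% and 9.28%). In the fit without replicate 3, which holds no library of these groups but shares its estimate of the spread with them, 1 was higher and 12 lower (background 14.1% and 14.7%), with a median of −0.08.

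**Figure D2:**
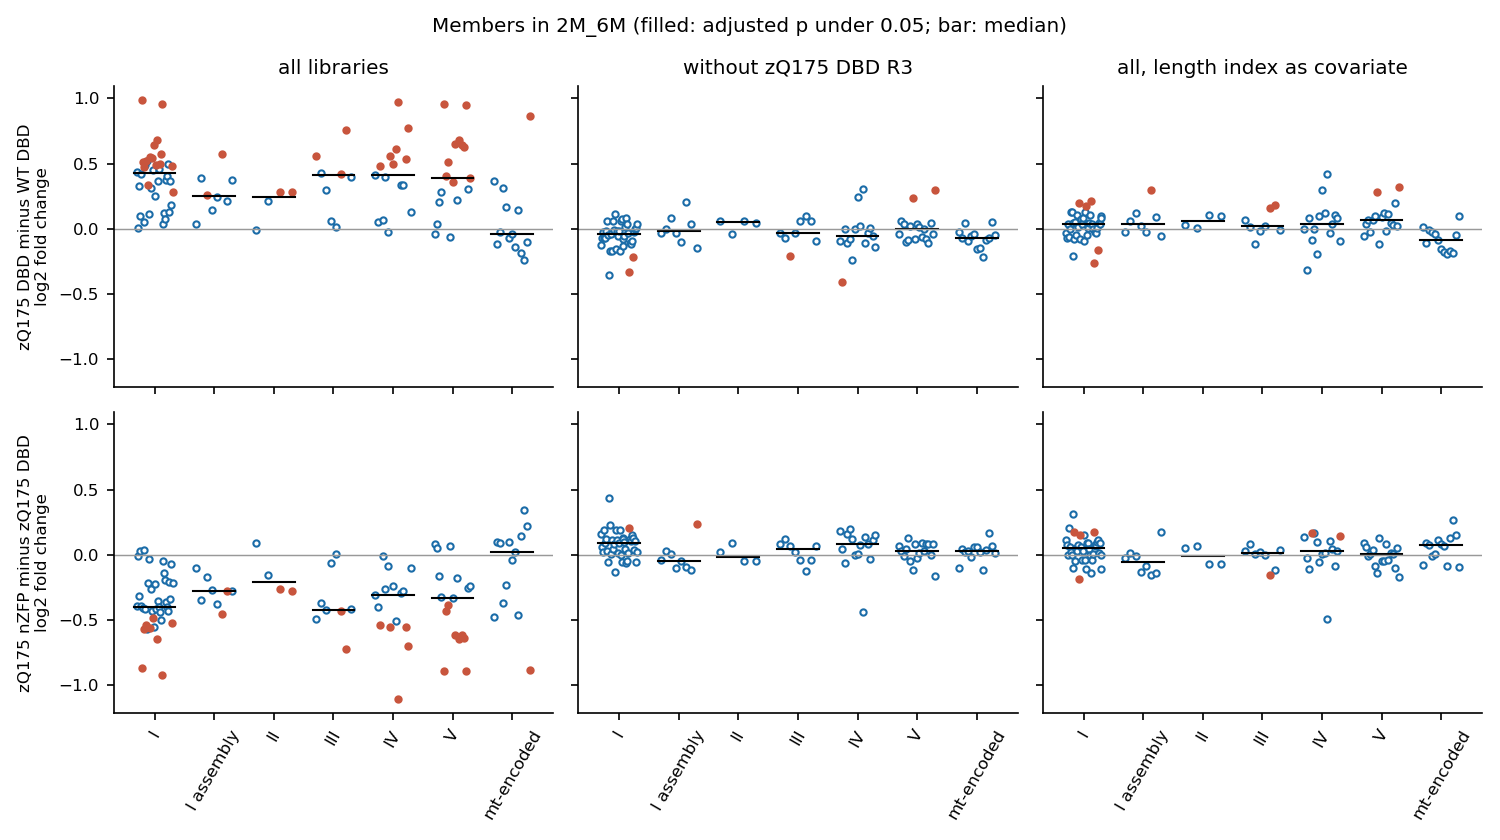
Log2 fold change of each tested member in 2M_6M by complex, for zQ175 DBD minus WT DBD (top) and zQ175 nZFP minus zQ175 DBD (bottom), with all libraries, without zQ175 DBD replicate 3, and with a covariate for the length index; filled points have an adjusted p under 0.05 and bars are medians. The nuclear median of the genotype difference is 0.39 with all libraries and −0.03 without replicate 3, and that of the repressor is −0.36 and 0.04.

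The mt-encoded members of replicate 3 did not follow the nuclear ones. Their median distance from the rest of the group was −0.03 on the log2 scale, with 6 above, 6 below and 1 within its range. mt-Nd6 stood at 3453 CPM against 367 to 521, mt-Atp6 at 15508 against 3907 to 6039, and mt-Co2 at 32826 against 9266 to 11815. In the other direction, mt-Nd5, the longest of the 13 (1824 bases), stood at 1770 CPM against 4932 to 7948 and mt-Co1 at 18340 against 23885 to 36221. mt-Nd4l, a short gene that overlaps mt-Nd4, stood at 113 CPM against 409 to 696. In all 4 libraries of high index mt-Nd6, mt-Atp6, mt-Nd3, mt-Co2 and mt-Co3 lay above their groups and mt-Nd4l and mt-Nd5 below. The other mt-encoded members differed between the 4: mt-Atp8, for example, was below its group in replicate 3, above it in zQ175 nZFP replicate 2 of 6M_10M and within it in the remaining pair. Because mt-Atp8 overlaps mt-Atp6, mt-Nd4l overlaps mt-Nd4, and mt-Nd6 lies antisense to the end of mt-Nd5, reads of these pairs can be split by the counting, and their single values are uncertain.

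The size of the rise varied with transcript length within these libraries, while both the shorter and the longer nuclear members were raised. In replicate 3 the 45 shorter nuclear members lay above the rest of the group by a median of 2.09 on the log2 scale and the 45 longer ones by 1.45. In the 3 other libraries these medians were 1.46 and 1.12, 1.78 and 1.253, and 1.01 and 0.73. The members of replicate 3 within or below its group included some of the longest, Atp5b, Atp5a1, Ndufs1, Sdha and Uqcrc2. Other long members lay above it, such as the assembly factors Ndufaf4 and Ndufaf7 (implied lengths 3105 and 2303 bases). Of the 45 longer nuclear members, 40 had a positive difference from the group. WT DBD replicate 2 of 6M_10M had 87 of 90 nuclear members above its group and a nuclear sum of 23111 CPM, and its opposite hemisphere 12519 CPM. zQ175 nZFP replicate 2 of 6M_10M had 88 above and a sum of 27841 CPM, against 12065 CPM in its opposite hemisphere. WT nZFP replicate 8 of 6M_8M had 86 above and 17901 CPM, against 10698 CPM. The opposite hemisphere of zQ175 DBD replicate 3 had 11568 CPM against 32939.

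**Figure D3:**
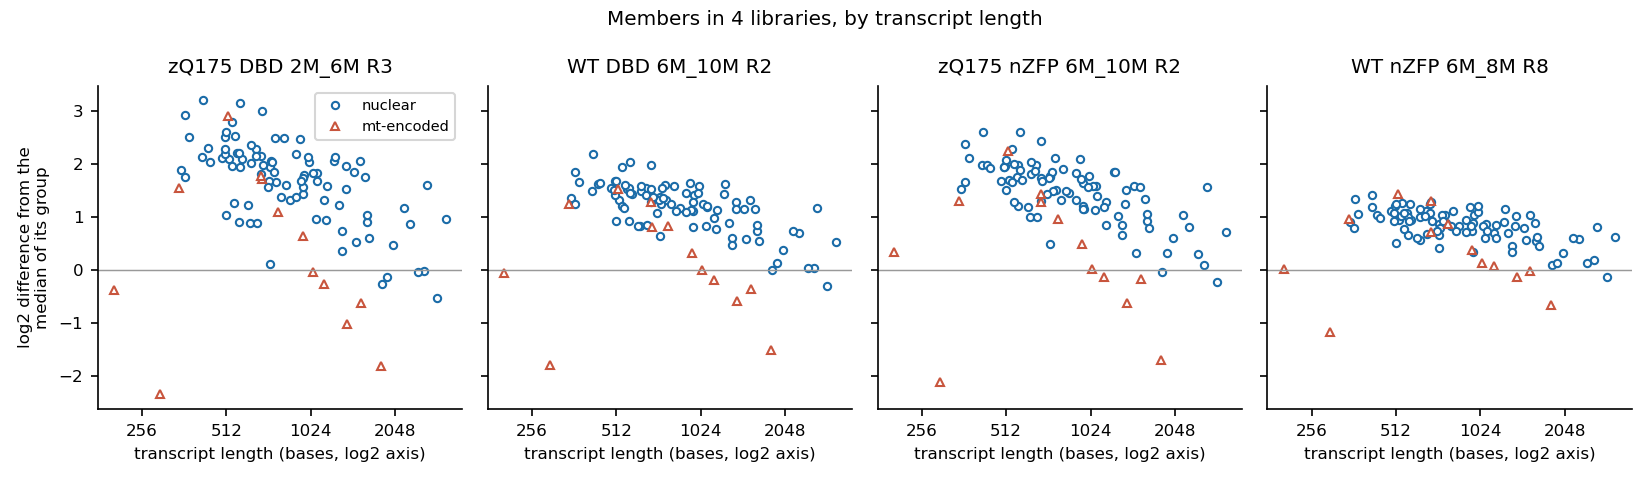
Difference of each member from the median of its group in the 4 libraries of high length index, against the transcript length implied by the deposited counts and TPM; circles are nuclear and triangles mt-encoded members. In zQ175 DBD replicate 3 the nuclear members' median difference is 1.82 and that of the mt-encoded members −0.03, and the shorter nuclear transcripts lie higher (2.09) than the longer ones (1.45).

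Across all libraries the nuclear sum moved with the length index, from which the members had been left out. Pearson's r between the log2 nuclear sum and the index was 0.954, 0.986, 0.867, 0.984 and 0.984 in the 5 paradigms (46, 47, 48, 46 and 46 libraries), and Spearman's rho was 0.794, 0.983, 0.766, 0.922 and 0.944. Without the 2 libraries farthest from the median index, r was 0.754, 0.985, 0.732, 0.950 and 0.982. A unit of the index went with 1.18, 0.88, 0.81, 0.94 and 0.88 log2 units of the nuclear sum. For the mt-encoded sum r was 0.412, 0.256, 0.253 and 0.365 in the first 4 paradigms and 0.876 in 6M_12M. Both measures come from the same libraries, many of them from the same mice, so these are descriptions with no p.

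**Figure D4:**
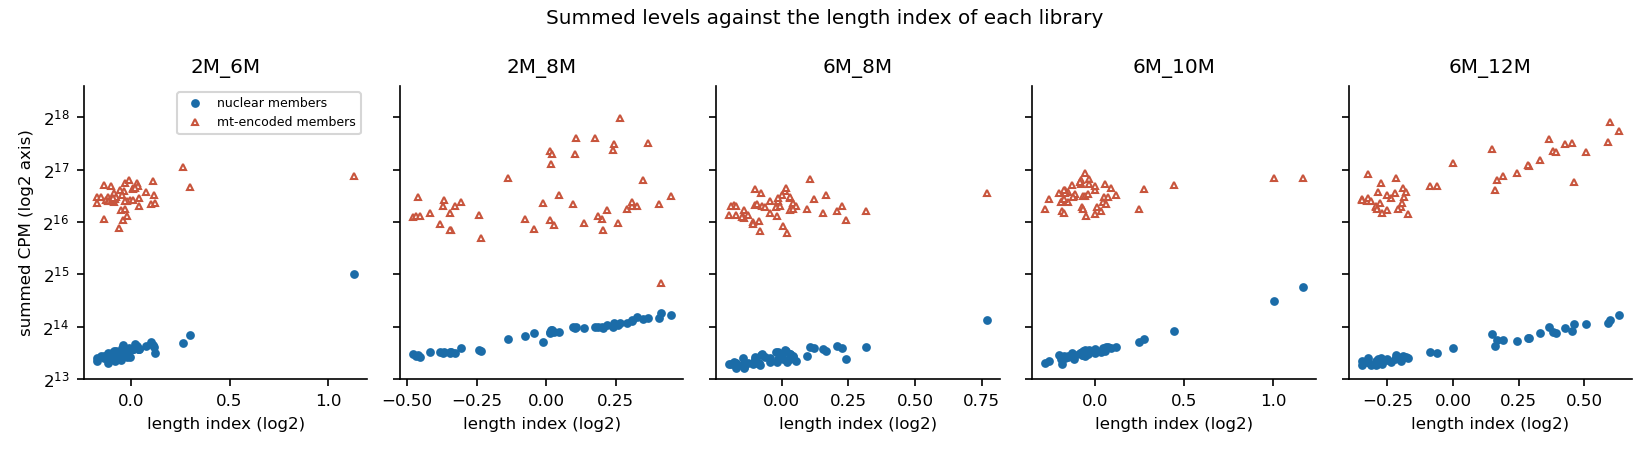
Summed CPM (log2 axis) of the nuclear members (circles) and of the mt-encoded members (triangles) against the length index of each library, by paradigm. The nuclear sum climbs with the index in each paradigm (r from 0.867 to 0.986), and 1 library of 2M_6M and 2 of 6M_10M lie at an index above 1.

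Other genes of the members' length had much the same medians as the members. In the genotype comparison of 2M_6M the nuclear members' median log2 fold change was 0.39, and that of the 564 other genes no longer than the members' median implied length (786 bases) was 0.41. The shortest class of all other genes by exon length (up to 2702 bases) had a median of 0.15 and the longest (from 6697 bases) −0.03. Within the nuclear members, the shorter ones by implied length had a median of 0.48 and the longer ones 0.28. In 2M_8M, 6M_8M, 6M_10M and 6M_12M the members' medians were −0.07, 0.05, −0.21 and −0.11, and those of the other short genes −0.07, 0.05, −0.23 and −0.15. Without the libraries that stood apart the pair of medians was −0.03 and −0.05 in 2M_6M and 0.02 and 0.01 in 6M_10M.

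Once the length index entered the fit as a covariate, the nuclear medians of the genotype difference came to 0.03, −0.00, 0.02, 0.01 and −0.03. Members were then called in both directions: 8 higher and 2 lower in 2M_6M (background 15.2% and 14%), 8 and 11 in 2M_8M (16.6% and 17.3%), 2 and 1 in 6M_8M (6.27% and 6.98%), 12 and 7 in 6M_10M (20.4% and 18.5%) and 6 and 18 in 6M_12M (17.2% and 17.8%). In each paradigm and direction this was a share of the 103 below the background, a difference that was not tested. Called in the same direction in 3 or more paradigms were 9.71% of members and 27.6% of all genes. Atp5g1 was higher and Ndufs3 lower in all 5. The index is computed from the same libraries, and whether the covariate also removes part of a genotype difference in short genes was not tested.

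With the length index Ndufs3 was the only member lower in all 5 paradigms, and without the index it passed in 1. In 2M_8M it ran from 105 to 159 CPM in WT DBD (median 130) and from 83.8 to 124 CPM in zQ175 DBD (median 97.5). In 6M_12M the ranges were 78.5 to 159 (median 130) and 83.9 to 123 (median 90.3), and in 6M_8M 73.9 to 107 (median 99.3) and 81.4 to 102 (median 84.8). The groups overlapped in each of these paradigms and the zQ175 DBD median was the lower one. The log2 fold change was 0.07, −0.34, −0.13, −0.46 and −0.29 in the 5 paradigms, and passed in 2M_8M (SE 0.11, adjusted p 0.024). With the length index it was −0.26, −0.30, −0.16, −0.23 and −0.21 and passed in all 5 (adjusted p from 6.4e-08 and 3.8e-08 in 2M_8M and 6M_10M to 0.039 in 6M_8M). With Estop as the control virus it was −0.30, −0.24, −0.13, −0.21 and −0.30, and none passed (adjusted p from 0.12 to 0.46). In 38.2% of libraries its deposited count was a whole number, so RSEM shared some of its reads with other entries.

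With the length index Atp5g1 was the only member higher in all 5 paradigms, and without the index it passed in 1. In 2M_8M it ran from 102 to 141 CPM in WT DBD (median 123) and from 130 to 172 CPM in zQ175 DBD (median 134), and in 6M_8M from 95.9 to 159 (median 105) and from 119 to 156 (median 124). The ranges overlapped, with the zQ175 DBD group shifted upward. In 6M_8M the overlap came from WT DBD replicate 8 (159 CPM), whose vector transcripts go against its label. The other WT DBD libraries there ran from 95.9 to 113 CPM, below the zQ175 DBD range. Its log2 fold change was 0.51 (SE 0.12, adjusted p 0.0013), 0.21 (adjusted p 0.084), 0.21 (adjusted p 0.17), 0.12 (adjusted p 0.61) and 0.21 (adjusted p 0.18) in the 5 paradigms. With the length index it was 0.28, 0.24, 0.19, 0.31 and 0.26, and passed in each (adjusted p from 5.1e-10 in 6M_10M to 0.04 in 6M_8M). With Estop controls it passed in 2M_8M (0.27, adjusted p 0.025) and 6M_8M (0.33, adjusted p 0.014). Its partner genes, which encode the same mature c subunit, did not share this: Atp5g2 differed by −0.12 to 0.01 with the length index and Atp5g3 by 0.01 to 0.09, and neither passed there in any paradigm.

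Sdha, a long member (4126 exonic bases), had similar fold changes with and without the length index. In 6M_10M it ran from 434 to 560 CPM in WT DBD (median 534) and from 542 to 609 in zQ175 DBD (median 574). In 6M_12M it ran from 482 to 583 (median 554) and from 552 to 616 (median 585). The ranges overlapped, and in both paradigms the zQ175 DBD median lay above the highest WT DBD library. The rise was 0.12 (SE 0.04, adjusted p 0.013) in 6M_10M and 0.10 (SE 0.04, adjusted p 0.041) in 6M_12M, and with the length index 0.10 (adjusted p 0.0018) and 0.11 (adjusted p 0.0021), with 2M_8M also passing (0.08, adjusted p 0.039). Sdha did not pass in 6M_10M or 6M_12M with Estop as the control virus. The other complex II genes in 6M_10M, Sdhb, Sdhc and Sdhd, differed by −0.19, −0.09 and −0.11, and none of them passed.

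Uqcrb, which encodes a ubiquinone-binding protein of complex III, ran from 89.2 to 223 CPM in WT DBD of 6M_10M (median 99.8) and from 70.5 to 87.5 in zQ175 DBD (median 77.9), with no overlap. It fell by 0.55 on the log2 scale (SE 0.17, adjusted p 0.016) in that paradigm and, with the length index, differed by −0.12, −0.26, −0.21, −0.33 and −0.33 over the 5, passing in 2M_8M, 6M_10M and 6M_12M. Atp5s, which encodes coupling factor B, a protein linked to ATP synthase, ran from 5.21 to 7.89 CPM in WT DBD of 2M_6M (median 7.09) and from 7.84 to 12.4 in zQ175 DBD (median 8.58). It rose by 0.39 (adjusted p 0.0026) in 2M_6M and by 0.28 (adjusted p 0.017) in 2M_8M, and did not pass in the 3 paradigms injected at 6 months (0.13, 0.09 and 0.15). Neither Uqcrb in 6M_10M nor Atp5s in 2M_6M or 2M_8M passed with Estop as the control virus. Whether the change of Atp5s differs between the injection ages was not tested.

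Several members of complex IV have partner isoforms. Cox6a2, the heart and muscle form of a complex IV subunit, ran from 2.86 to 4.30 CPM in WT DBD of 2M_8M (median 3.81) and from 2.51 to 3.43 in zQ175 DBD (median 2.71), a fall of 0.37 on the log2 scale (adjusted p 0.014). Cox6a2 did not pass in 2M_8M with Estop as the control virus. Against DBD, its common partner Cox6a1 differed by −0.12 there (adjusted p 0.64), and in 6M_12M Cox6a2 differed by −0.34 (adjusted p 0.094) and Cox6a1 by −0.04 (adjusted p 0.9). Cox4i2, an oxygen-responsive form of subunit IV, differed by 0.05, −0.42, −0.22, −0.62 and −0.41 and did not pass in any paradigm; with the length index it was between −0.36 and −0.27 in all 5 and passed in 2M_8M, 6M_10M and 6M_12M. Cox4i1 with the length index lay between −0.04 and 0.03. Cox7a1, the heart and muscle partner of Cox7a2, ran from 0.154 to 0.594 CPM in WT DBD of 2M_6M (median 0.507) and from 0.224 to 3.06 in zQ175 DBD (median 0.611), with replicate 3 the highest. Its log2 fold change was 0.97 (adjusted p 0.026), 0.35, 0.22, −0.03 and 0.52 in the 5 paradigms, and 0.31 (adjusted p 0.45) in 2M_6M without replicate 3. With the length index it passed in 6M_12M (0.60, adjusted p 0.026). Differences between partner genes were not tested. Cox8a, Cox7a2 and Cox7a2l did not pass without the covariate in any paradigm, and Ndufa4l2, a low partner of Ndufa4, differed by −0.32 to 0.05 and passed in none.

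**Figure D5:**
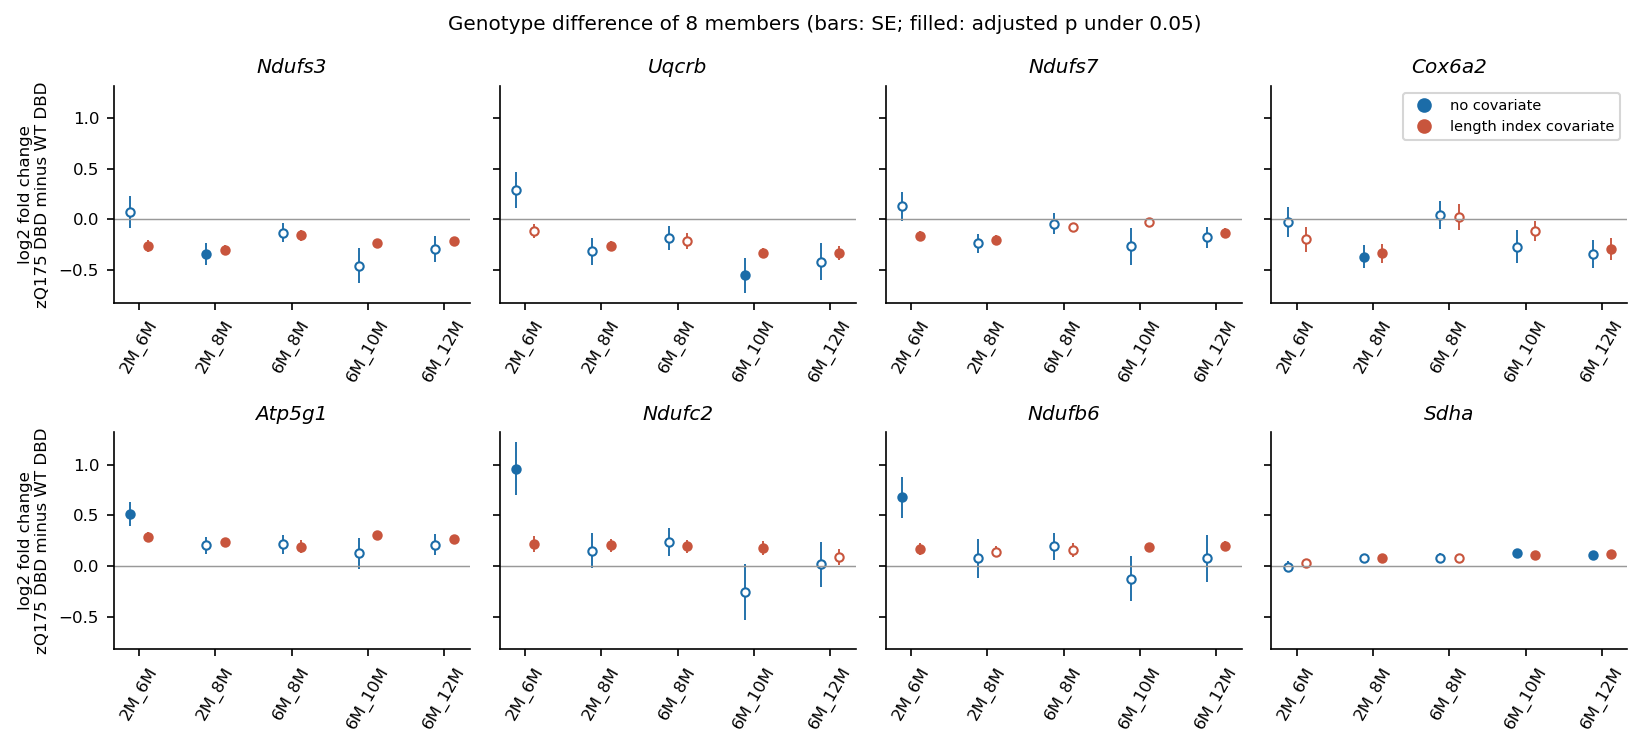
Log2 fold change of 8 members between zQ175 DBD and WT DBD in the 5 paradigms, without (blue) and with (red) the length index as a covariate; bars are standard errors and filled points have an adjusted p under 0.05. Ndufs3 with the covariate lies between −0.30 and −0.16 and Atp5g1 between 0.19 and 0.31.

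The repressor was compared with DBD in zQ175 hemispheres, to ask whether repressing the expanded allele moves the members. These comparisons share the zQ175 DBD libraries with the genotype comparison, so opposite signs between them are built in. In 2M_6M 0 members were higher and 28 of 103 lower (background 8.8% and 14.4%), 27 of them nuclear, with a median log2 fold change of −0.36 for nuclear and 0.02 for mt-encoded members. By complex, 8 of 38 nuclear complex I subunits fell (median −0.40), 2 of 8 assembly factors, 2 of 4 in complex II, 2 of 8 in complex III, 5 of 15 in complex IV and 8 of 17 in complex V. Ndufc2 fell by 0.92, Atp5mpl by 0.90 and Cox7a1 by 1.11 on the log2 scale. In the nZFP libraries Ndufc2 ran from 31.1 to 37.7 CPM (median 32.9), within the range of WT DBD.

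Without zQ175 DBD replicate 3, 2 members were higher and 0 lower in 2M_6M (background 7.47% and 6.3%), with a nuclear median of 0.04: Ndufs3 (0.21, adjusted p 0.046) and Ndufaf8, an assembly factor of complex I (0.23, adjusted p 0.037). With each mouse as a block in the fit, 0 members were called in 2M_6M (background 2.95% and 1.72%). Only zQ175 DBD replicates 5, 6 and 7 had nZFP in the opposite hemisphere. Replicates 1, 2, 3 and 4 had Estop there, so this comparison runs in part through Estop. With Estop in place of DBD 0 were called with all libraries (background 3.79% and 3.59%). In the fit without replicate 3, 28 were higher and 0 lower, with a median of 0.13 (background 8.4% and 7.11%). That fit re-estimated the filter, the scaling and the spread. The length index was negative in all zQ175 Estop libraries but replicate 7 (−0.175 to 0.117) and ran from −0.094 to 0.111 in zQ175 nZFP. The part of transcript length in these calls was not tested.

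In 2M_8M the repressor raised 1 member and lowered 0 (background 4.16% and 2.9%). This was Ndufs3, which ran from 83.8 to 124 CPM in zQ175 DBD (median 97.5) and from 97.1 to 184 CPM in zQ175 nZFP (median 131), close to the WT DBD median of 130. The ranges overlapped. It rose by 0.35 (SE 0.11, adjusted p 0.042), by 0.19 (SE 0.04, adjusted p 0.0011) with the length index, by 0.22 (adjusted p 0.096) with mouse as a block and by 0.20 (adjusted p 0.4) against Estop. With mouse as a block 0 members were higher and 2 lower in 2M_8M (background 4.28% and 2.67%), mt-Cytb (−0.42, adjusted p 0.045) and mt-Nd1 (−0.38, adjusted p 0.041). In 6M_8M (background 0.0437% and 0.0688%), 6M_10M (0.562% and 0.41%) and 6M_12M (0.676% and 0.573%) 0 members were called by edgeR and by DESeq2, with 0, 37 and 1 at an unadjusted p under 0.05. In 6M_10M the nuclear median was 0.38 with all libraries and −0.02 without the 2 that stood apart, where 0 members were again called (background 0.867% and 0.471%).

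With the covariate, the repressor's calls in zQ175 were 5 higher and 2 lower in 2M_6M (background 9.7% and 8.23%) and 5 and 2 in 2M_8M (7.82% and 5.66%), and 0 in 6M_8M (0.1% and 0.1%), 6M_10M (1.64% and 0.997%) and 6M_12M (2.45% and 1.55%). Ndufs3 rose in both (0.17, adjusted p 0.026, and 0.19, adjusted p 0.0011), as did Ndufb10, an accessory subunit of complex I (0.15 and 0.17). Atp5g1, higher in zQ175, fell by 0.14 in 2M_8M (adjusted p 0.0016) and differed by −0.14 in 2M_6M (adjusted p 0.052).

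In WT mice the repressor changed 0 members in each paradigm by edgeR. The background was 0.0319% higher and 0.236% lower in 2M_6M, 0.938% and 2.04% in 2M_8M, 0.519% and 0.0625% in 6M_8M, 0.183% and 0.297% in 6M_10M and 0.0322% and 0.206% in 6M_12M. The members' median was 0.36 in 2M_8M, where 67 had an unadjusted p under 0.05 and DESeq2 called 3 higher (background 2.49% higher and 4.16% lower), and 0.23 in 6M_8M, where 60 did and DESeq2 called 8 higher (2.8% and 0.378%). In the other 3 paradigms 0, 11 and 0 did, in age order, and DESeq2 called 0. WT nZFP replicate 8, a library of high length index, stands in the 6M_8M group, with a nuclear sum of 17901 CPM against 9960 to 12444 in the others. Without it 0 members were called in 6M_8M by edgeR (background 0.299% and 0.0311%) and by DESeq2 (1.07% and 0.114%), 9 and 11 had an unadjusted p under 0.05, and the nuclear median went from 0.24 to 0.10. The other short genes had a median of 0.22 there with all libraries and 0.09 without it. In 2M_8M 1 member was higher and 0 lower with mouse as a block (background 0.532% and 0.868%), the complex I assembly factor Ndufaf2 (0.32, adjusted p 0.04998). In 2M_8M the other short genes had a median of 0.30 in this comparison, against 0.35 for the nuclear members, and the nuclear sum had medians of 13182 CPM in WT DBD and 16985 CPM in WT nZFP.

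The control viruses were compared with each other (DBD minus Estop) to see what the choice of control does. In zQ175 of 2M_6M, 40 members were higher with DBD and 0 lower (background 3.34% and 1.16%), with a median of 0.51. Without replicate 3, 0 were called (background 0.127% and 0.375%), and so it was with the length index and with mouse as a block. In the other 4 paradigms 0 members were called in zQ175 by edgeR and by DESeq2, with 1, 0, 2 and 1 at an unadjusted p under 0.05 (background 0.0824% and 0.101%, 0.0187% and 0.0375%, 0.0631% and 0.17%, and 0.0773% and 0.213%). In WT 0 members were called in any paradigm by either tool, with 10 at an unadjusted p under 0.05 in 6M_10M and 0 in the others (background 0.0893% and 0.0191%, 0.095% and 0.101%, 0.05% and 0.138%, 0.145% and 0.524%, and 0.11% and 0.058%). The interaction of repressor and genotype was called for 0 members in each paradigm by edgeR and by DESeq2, with 31, 3, 30, 66 and 0 at an unadjusted p under 0.05. In 2M_8M the block changed this: with mouse as a block 0 members were higher and 4 lower (background 2.66% and 1.41%), mt-Atp6 (−1.01, SE 0.24, adjusted p 0.019), mt-Co2 (−0.65, adjusted p 0.013), mt-Cytb (−0.63, adjusted p 0.049) and mt-Nd1 (−0.68, adjusted p 0.016). With the block and the length index together 1 was higher and 7 lower (4.12% and 2.48%), and with the index alone 2 and 2 (4.67% and 2.84%), all of them nuclear. Without the block and the index the 4 mt-encoded members had adjusted p of 0.33 to 0.59. Of all genes, 2.09% were called higher and 1.18% lower for the interaction in 2M_6M, 1.46% and 0.526% in 2M_8M, 0% and 0% in 6M_8M, 0.0379% and 0.0126% in 6M_10M, and 0% and 0% in 6M_12M. In 2M_6M, 6M_8M and 6M_10M, which hold the libraries of high length index, the nuclear medians of the interaction were −0.38, −0.27 and 0.59. Those of the other short genes were −0.40, −0.26 and 0.51.

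The share of mt-encoded members varied most in 2M_8M and 6M_12M, and much of that spread was between mice. In 2M_8M their share of gene counts ran from 5.66% to 7.74% in WT DBD (median 6.93%), from 6.73% to 22.6% in zQ175 DBD (median 8.68%) and from 3.12% to 17.2% in zQ175 nZFP (median 9.50%). It ran from 6.78% to 14.5% in WT Estop, from 6.49% to 15.4% in WT nZFP and from 6.35% to 18.2% in zQ175 Estop. WT DBD was the narrow group, and the groups overlapped. The median log2 fold change of the 13 between zQ175 DBD and WT DBD was 0.69 in this paradigm and −0.04, 0.03, −0.19 and −0.27 in the others, and 0 of the 13 passed in 2M_8M, where the covariate left it at 0.70. mt-Co1 ran from 12234 to 18915 CPM in WT DBD (median 15451) and from 11926 to 82435 CPM in zQ175 DBD (median 22855), a difference of 1.11 (SE 0.42, adjusted p 0.056), and mt-Cytb, the mt-encoded core of complex III, differed by 0.97 (SE 0.38, adjusted p 0.068). The short genes mt-Atp8 and mt-Nd3 differed by 0.14 and 0.04. The high zQ175 DBD values came from replicates 7 and 8, at 22.6% and 18.59%, while the other 6 libraries of the group ran from 6.73% to 9.18%.

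The shares followed the running number that opens each library's sample id in the labels. The 11 libraries of 2M_8M with the highest numbers held 11.6% to 22.6%, and the 36 with lower numbers 3.12% to 10.9%. The 11 were 2 zQ175 DBD, 2 zQ175 Estop, 4 zQ175 nZFP, 2 WT nZFP and 1 WT Estop library, and no WT DBD library was among them. In 6M_12M, whose numbers follow on, the library with the lowest number (zQ175 DBD replicate 1) had 18.4%, WT DBD replicate 1 had 21.3%, and the library with the highest number (WT nZFP replicate 8) had 7.77%. The length index of 6M_12M went with the number too. It ran from 0.147 to 0.632 over numbers 193 to 208 and from −0.348 to 0.244 over numbers 209 to 240. The genotype values of 6M_12M were not split by this number. The labels do not say what the number stands for. Among the DBD libraries of 2M_8M the high numbers were in zQ175 only, so over that run the number and the genotype cannot be told apart. The lower numbers hold both genotypes. There the DBD libraries had 5.66% to 7.74% in WT (median 6.93%) and 6.73% to 9.18% in zQ175 (median 8.20%). The medians of WT and zQ175 were 8.59% and 7.77% with Estop, and 8.25% and 6.17% with nZFP. These differences were not tested. The edge of the run in 2M_8M was read from the shares themselves, and that in 6M_12M from the index. No fit was made without either run.

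Averaged over hemispheres, the mt-encoded share of 2M_8M ran from 6.73% to 15.4% over 12 WT mice (median 7.76%) and from 5.00% to 19.9% over 12 zQ175 mice (median 8.00%). Over 13% lay 2 of 12 WT and 4 of 12 zQ175 mice. In 6M_12M it ran from 8.01% to 20.1% in WT (median 12.2%) and from 8.25% to 17.3% in zQ175 (median 10.0%), with 5 of 12 WT and 2 of 12 zQ175 mice over 13%, and in the other 3 paradigms no mouse passed 13%. High mice were thus found in both genotypes and in 2 of the paradigms. The standard deviation of the log2 share between mouse means was 0.518 in 2M_8M and 0.390 in 6M_12M, above that between the hemispheres of a mouse (0.283 and 0.191). In 2M_6M, 6M_8M and 6M_10M it was 0.139, 0.165 and 0.144, against 0.198, 0.124 and 0.178 within a mouse. Hemispheres of a mouse carry neighbouring running numbers, so spread between mice and spread along that number cannot be told apart.

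Genes that build or feed the chain were described from lists. In the genotype comparison of 2M_6M 17.2% of all genes were higher and 11.5% lower, and 13.1% and 12.6% without replicate 3. Of 77 tested mitochondrial ribosomal protein genes, which serve translation of the mt-encoded subunits, 22 were higher and 0 lower in zQ175 DBD (median 0.26), and 1 and 4 without replicate 3 (0.00). Of 92 cytosolic ribosomal protein genes, as short as the members but of another pathway, 45 were higher and 5 lower (0.44), and 1 and 5 without it (−0.05). Of 34 assembly factors of complexes II to V, 9 were higher and 2 lower, and 1 and 1 without it. Of 17 genes of the electron carriers cytochrome c and ubiquinone and of electron transfer flavoprotein, 6 were higher and 1 lower, and 1 and 1 without it. The 8 tested complex I assembly factors with other names had 2 higher and 0 lower with and without it (medians 0.09 and 0.08). In the other 4 paradigms at most 1 mitochondrial ribosomal gene was called in a direction (background 9.32% and 9.37%, 3.98% and 5.15%, 11.9% and 12.3%, and 9.14% and 9.14%).

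Of the 16 genes of the tricarboxylic acid cycle and pyruvate dehydrogenase, which supply NADH and succinate, 2 were higher and 2 lower in 2M_6M, 3 and 2 in 2M_8M, 1 and 0 in 6M_8M, 4 and 1 in 6M_10M and 1 and 2 in 6M_12M. Of 18 regulators of mitochondrial biogenesis and mitochondrial DNA expression, 1 was higher and 3 lower in 2M_6M, and 0 higher in the others. The background was 17.2% higher and 11.5% lower in 2M_6M, 9.32% and 9.37% in 2M_8M and 3.98% and 5.15% in 6M_8M. It was 11.9% and 12.3% in 6M_10M and 9.14% and 9.14% in 6M_12M. Without replicate 3 the cycle genes of 2M_6M had 3 higher and 2 lower, and the regulators 0 and 2 (background 13.1% and 12.6%). Tfam, which packages and transcribes mitochondrial DNA, was the higher one with all libraries (0.30, adjusted p 0.028) and differed by 0.05 (adjusted p 0.51) without replicate 3. Esrra, a nuclear receptor that works with PGC-1alpha, fell by 0.35 on the log2 scale (adjusted p 0.0002) and by 0.39 (adjusted p 4e-05) without it. Nrf1 fell by 0.17 (adjusted p 0.036) and differed by −0.14 (adjusted p 0.088) without it. Ppargc1a, which encodes PGC-1alpha, differed by 0.17 (adjusted p 0.053) in 2M_6M and by 0.12 (adjusted p 0.19) without it. Under the repressor in 2M_6M zQ175, 1 and 27 of the mitochondrial ribosomal genes, 3 and 12 of the cytosolic ones, 0 and 9 assembly factors, 1 and 5 carrier genes, 0 and 2 complex I factors, 1 and 6 regulators and 1 and 1 cycle genes were higher and lower. Without replicate 3 these were 1 and 0, 8 and 2, 0 and 0, 1 and 2, 0 and 1, 0 and 1, and 1 and 0. The background of the repressor was 8.8% higher and 14.4% lower with all libraries, and 7.47% and 6.3% without replicate 3.

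Markers of the cell types in the tissue were set beside these values. The 10 medium spiny neuron markers were all well above the filter, and 9, 8, 9, 9 and 8 of them were lower in zQ175 DBD in the 5 paradigms (medians −0.82, −0.80, −0.65, −0.82 and −0.90). Their summed level in 2M_6M ran from 10108 to 12449 CPM in WT DBD, from 5525 to 7214 in zQ175 DBD and from 8072 to 9737 in zQ175 nZFP, with no overlap. In 6M_8M, which holds 3 of the 4 libraries against their labels, the ranges were 6040 to 11011, 4359 to 6555 and 5573 to 9060 CPM, and all 3 overlapped. Under nZFP 9, 8, 0, 6 and 4 of the 10 were higher (background 8.8%, 4.16%, 0.0437%, 0.562% and 0.676%). For genotype 11.5%, 9.37%, 5.15%, 12.3% and 9.14% of all genes were lower, and 17.2%, 9.32%, 3.98%, 11.9% and 9.14% higher. Of 5 astrocyte markers 0, 1, 1, 0 and 1 were lower by genotype, of 5 oligodendrocyte markers 1, 1, 0, 2 and 1, of 5 microglial markers 2, 1, 0, 1 and 1, of 4 endothelial markers 0, 1, 0, 0 and 0, and of 6 mural markers 0 in each. Of 3 tested parvalbumin interneuron markers 1 was higher in 2M_6M and 0 in the others. Of the ependymal and choroid plexus markers 3 of 3 tested were higher in 2M_6M (Ttr under the filter), and 1 of 4 without replicate 3 (13.1% of all genes). Cortical excitatory markers were near 0, with group medians of 1.53 to 2.97 summed CPM in these 3 groups, Neurod6 mostly under the filter, and 1 or 2 called higher. In 6M_8M their highest library reached 30.3 CPM in zQ175 DBD, 63.8 in zQ175 nZFP and 119.6 in zQ175 Estop. It reached 31.6 in WT Estop, 22.8 in WT nZFP and 2.91 in WT DBD. The ependymal and choroid plexus markers reached 678 CPM in the highest WT DBD library of 6M_8M (group median 13.9). Of the muscle markers Ckm, Myh1 and Myh2 were under the filter, and Acta1 was lower in 4 of 5 paradigms. The part of any of these cell types in the members' values was not tested.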

How the data were processed

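The deposited gene table holds expected counts made by the authors with RSEM on GRCm38, per the submitters' processing notes. For versions, annotation and strand setting nothing is stated in the sources used here. Of its values 90.3% were whole, and the rest were rounded. Besides 41129 genes it lists 6 vector sequences, at most 0.669% of a library, which were left out. A second deposited table is named as FPKM, but each of its columns sums to 1000000, so its values were used as TPM, as the authors deposited them, for levels only. Count divided by TPM gave an implied transcript length.

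Genes past edgeR's filterByExpr were fitted with TMM scaling, 1 fit of 6 groups per paradigm with sex as a covariate, and the robust quasi-likelihood test (edgeR 4.0.16, limma 3.58.1, R 4.3.3). Benjamini-Hochberg adjustment ran over all genes tested, with a threshold of 0.05. Alternatives were DESeq2 1.42.0, other scaling, no filter, Estop controls, left-out libraries, the length index (prior count 2) and replicate blocks. Tables and figures used Python 3.11.15, pandas 2.3.3, numpy 2.4.6, scipy 1.17.1 and matplotlib 3.10.9, and the fits were tested on simulated data.

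CPM values of single libraries use TMM-scaled library sizes. Hemispheres come from the same mouse, per the labels. Their deviations from group means correlated by medians of 0.163, 0.258, 0.129, 0.117 and 0.331 over 22, 23, 24, 22 and 22 pairs, so mouse was used as a block. Earlier results of these data were known when members, lists and named-gene rule were chosen. That rule takes the mt-encoded members, up to 8 members per direction passing in the most paradigms for genotype and repressor, up to 3 for other comparisons, the most abundant member of each complex, and members with partner isoforms. Ndufc2, Cox7c, Uqcrc2 and the list genes were described after their values were seen. Gene names and lengths come from GENCODE M21. Symbols were matched for 40254 genes.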

Additional observations from a re-analysis of the deposited data

Results flagged for a closer look

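For 6 quantities (the nuclear sum, the length index, the mt-encoded percentage, and the CPM of Ndufs3, Atp5g1 and Sdha), the highest or lowest library of a group lay far from the nearest of the others in 34 of 180 group tests by Dixon's ratio. Chance flags about 1 in 20 such tests. The length index gave 8 of these, Ndufs3 7, the nuclear sum, Atp5g1 and Sdha 6 each, and the mt-encoded percentage 1.

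Libraries of high length index carried most of them. In zQ175 DBD replicate 3 of 2M_6M the nuclear sum was 32938.9 CPM (others 10136 to 13470), the index 1.13, Ndufs3 318 CPM (others 78.9 to 107), Atp5g1 363 CPM (118 to 172) and Sdha, as the lowest, 368 CPM (509 to 573). In WT DBD replicate 2 of 6M_10M the nuclear sum was 23111 CPM, the index 1.01, Ndufs3 247 CPM, Atp5g1 227 CPM and Sdha, as the lowest, 434 CPM. In zQ175 nZFP replicate 2 of 6M_10M these were 27841 CPM, 1.17, 266 CPM, 318 CPM and 486 CPM. In WT nZFP replicate 8 of 6M_8M the nuclear sum was 17901 CPM, the index 0.768, Ndufs3 186 CPM and Atp5g1 176 CPM.

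Smaller departures of the same kind were in WT DBD replicate 7 of 2M_6M (nuclear sum 14654 CPM, index 0.300, Ndufs3 150.7 CPM, Atp5g1 147 CPM) and zQ175 nZFP replicate 1 of 6M_12M (nuclear sum 13669 CPM, index 0.169, Ndufs3 115 CPM). WT nZFP replicate 2 of 6M_10M had an index of 0.273 and Ndufs3 at 125 CPM, and WT Estop replicate 1 of 2M_6M an index of 0.263.

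The rest were single values. WT DBD replicate 8 of 6M_8M, whose vector transcripts go against its label, had Atp5g1 at 159 CPM (others 95.9 to 113). Sdha was lowest at 505 CPM in WT DBD replicate 8 of 2M_8M (others 554 to 576) and at 519 CPM in zQ175 Estop replicate 8 of 6M_8M (576 to 615), and highest at 639 CPM in zQ175 Estop replicate 1 of 6M_12M (583 to 603). The mt-encoded percentage was 14.5% in WT Estop replicate 7 of 2M_8M (others 6.78% to 9.13%).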

How the results depend on the processing

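Of 289 recomputed counts of called members, 231 stayed within 1.5 times the reported count and 58 did not. RLE scaling and library sizes from nuclear genes moved none. The share of all genes called is not given here for each of these settings. The counts therefore show how the calls depend on the processing and are no result about the members. Paradigms are named after each count, and the cause of a change was not tested unless libraries were left out. DESeq2 called 4 members for genotype in 6M_10M, 2 for the repressor in zQ175 of 2M_8M, and 3 and 8 for the repressor in WT of 2M_8M and 6M_8M. Estop controls gave 0 for genotype in 2M_6M, 6M_10M and 6M_12M and 1 in 6M_8M, and 0 for nZFP against Estop in zQ175 of 2M_6M and 2M_8M. Without a filter genotype had 19 in 2M_6M and 0 in 6M_12M, the repressor in zQ175 15 in 2M_6M and 0 in 2M_8M, and the control viruses in zQ175 of 2M_6M 0. With the length index genotype had 10, 19, 3, 19 and 24 in the 5 paradigms, the repressor in zQ175 7 in 2M_6M and 7 in 2M_8M, the repressor in WT 1 in 6M_8M, the control viruses 0 in zQ175 of 2M_6M and 1 in WT of 6M_10M, and the interaction 4 in 2M_8M.

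With mouse as a replicate block, the repressor in zQ175 had 0 in 2M_6M and 2 in 2M_8M, the repressor in WT 1 in 2M_8M, the control viruses in zQ175 0 in 2M_6M and the interaction 4 in 2M_8M. With the block and the length index together these were 1 and 8 for the repressor in zQ175, 4 for the repressor in WT in 6M_10M, 0 and 4 for the control viruses in zQ175 of 2M_6M and WT of 6M_10M, and 8 for the interaction in 2M_8M. The block changed no other call by this measure. Replicate numbers shared by the genotypes pair no animals, and the median correlation of same-numbered deviations was 0.159, −0.433, 0.0235, −0.0201 and 0.675. As a block they gave genotype counts of 14 in 2M_6M, 5 in 2M_8M, 5 in 6M_10M and 27 in 6M_12M, with no share of all genes to set beside them.

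Without the 4 libraries against their labels genotype had 2 in 6M_8M, and with Estop controls as well, a choice made after seeing the data, 1 in 6M_8M and 0 in 2M_6M, with 0 for the repressor in zQ175 of 2M_6M. Without the libraries that stood apart (zQ175 DBD replicate 3 of 2M_6M, WT DBD replicate 2 and zQ175 nZFP replicate 2 of 6M_10M), genotype had 6 in 2M_6M and 4 in 6M_10M, the repressor in zQ175 2 in 2M_6M and the control viruses in zQ175 0. Combined with Estop controls, also chosen after seeing the data, genotype had 13 and 10. Combined with the length index, likewise, genotype had 11 and 20, the repressor in zQ175 12 in 2M_6M, the repressor in WT 2 in 6M_10M, the control viruses 0 in zQ175 of 2M_6M and 1 in WT of 6M_10M, and the interaction 1 in 2M_6M. Without WT nZFP replicate 8, also chosen after seeing the data, all counts of 6M_8M were 0 by edgeR and DESeq2.

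Of 274 recomputed values of named genes, 140 kept their direction and call, 110 their direction only, and 24 changed sign, all in 2M_6M. For Estop in place of DBD with all libraries, 15 kept their direction only and 7 changed sign. No call of a named gene against DBD was thus kept with Estop. With Estop controls mt-Nd6 came to −0.11 and Uqcrh to −0.039 for genotype, and Ndufb6, Ndufa4, Cox5a, Ndufv2 and Ndufab1 to 0.051, 0.12, 0.032, 0.10 and 0.027 for the repressor in zQ175. Without the libraries against their labels these were −0.11, −0.041, 0.055, 0.13, 0.036, 0.11 and 0.031, and without those that stood apart −0.12, −0.039, 0.049, 0.12, 0.030, 0.10 and 0.028. With DBD controls and without replicate 3, mt-Nd6 came to −0.052 for genotype and 0.012 for the repressor, and with the length index as well to −0.011 for genotype.

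Depth limits the rare members. Cox7b2, Cox8b and Cox8c were not tested, and Cox7a1, which was tested, had a mean of 19.8 counts per library. Short members and mt-encoded members that overlap on mitochondrial DNA are the least certain, since counts of the first move with the length index and those of the second depend on how shared reads were divided. Hemispheres of a mouse are not independent, so p-values between viruses without the block treat them as separate. Ages and injection times differ between paradigms and were fitted apart, so differences between paradigms were not tested.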
